A study of Mus musculus with 18 samples.

Results

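Macrophages of the mouse line J774.1 that lack the corepressors CTBP1 and CTBP2 (labelled Ctbp1/2dKO, here dKO) were compared with wildtype cells of the same line after 4 h in 1.5 mM MTOB. The labels of genotype and treatment chose the samples, and no measured value was used: 3 dKO and 3 wildtype samples under MTOB, 6 of the 18 samples in the series. The series asked whether the inhibitors MTOB and 4-Cl-HIPP act through CTBPs, and it holds the same genotypes under vehicle (PBS or DMSO) and under 0.25 mM 4-Cl-HIPP for 4 h, with 3 biological replicates in each of the 6 groups. CRISPR-Cas9 had been used to disrupt Ctbp1 and Ctbp2, and cells of either genotype were grown out from single cells. How many clones stand behind each genotype is not given in the sources used here, so a difference between clones and the loss of CTBPs cannot be told apart. In these bulk samples, fewer cells of a type and less RNA per cell cannot be told apart either.

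CTBP1 and CTBP2 do not bind DNA themselves. Transcription factors such as ZEB and KLF proteins bring them to genes, where they gather histone deacetylases, the demethylase LSD1 (Kdm1a) and the methyltransferases EHMT1 and EHMT2, and transcription is held down. The proteins also carry an NAD(H)-binding dehydrogenase fold related to D-2-hydroxyacid dehydrogenases, and MTOB, a keto acid made in the methionine salvage pathway, occupies its active site at high concentrations. Treating dKO cells with MTOB therefore gives the genotype difference in cells that all received the compound, at a dose and time shared by both genotypes.

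Poly(A) RNA was sequenced without strand information, and the level of each gene was deposited as TPM, the share of a sample's transcripts that a gene takes, corrected for its length and scaled to the same sum in every sample. Read depth is unknown from TPM. Over the 6 samples, 11655 to 11735 genes were listed at 1 TPM or more. Of 12 macrophage markers 11 were in the table, and their summed level was 3660, 3475 and 3543 TPM in the wildtype samples and 2688, 2976 and 3023 TPM in the dKO samples. The macrophage identity was therefore visible in both genotypes. Csf1r, the receptor of macrophage colony-stimulating factor, was the most abundant marker at a mean of 763 TPM over the 6 samples, and the lineage factor Spi1 was listed at 284, 259.7 and 299.7 TPM in wildtype and 297, 262 and 314 TPM in dKO cells. Markers of T cells summed to at most 9.07 TPM, led by Lck at a mean of 3.73 TPM, and those of B cells, neutrophils, fibroblasts and epithelium to less than 1 TPM in each sample. Dendritic cell markers summed to 0.905, 0.691 and 0.396 TPM in wildtype and 2.60, 1.89 and 4.83 TPM in dKO samples. Itgax led them by its mean over the 6 samples, which came from the dKO samples alone. Endothelial markers, led by Pecam1, reached 2.17 TPM in 1 dKO sample, and those of red cells and megakaryocytes at most 1.95 TPM. No mast cell marker was listed, with 0 of 6 in the table.

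The dKO replicate 1 stood apart from its group. Mitochondrial transcripts took 7.04% of its TPM, against 9.20% and 9.53% in the other dKO samples and 9.44%, 8.99% and 9.30% in the wildtype samples, and mt-Atp8 was listed at 18945 TPM, against 30834 and 29083 TPM in the other dKO samples. The main counts are therefore also given without it. The first principal component of the 6 samples, over their 500 most variable genes, held 40.5% of the variance and placed the wildtype samples at -21.1, -18.01 and -16.04 and the dKO samples at 16.4, 22.03 and 16.7. The second held 18.5% and ran from replicate 1 to replicate 3 at 13.9, -3.38 and -13.8 in wildtype and 20.1, -7.40 and -9.39 in dKO samples, the same order in both genotypes. After group means were removed, samples with the same number correlated, across the 11044 genes whose mean normalized count reached 10, at 0.0401, -0.0200 and 0.0581, and those with different numbers at -0.0924 to 0.0573.

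**Figure D1:**
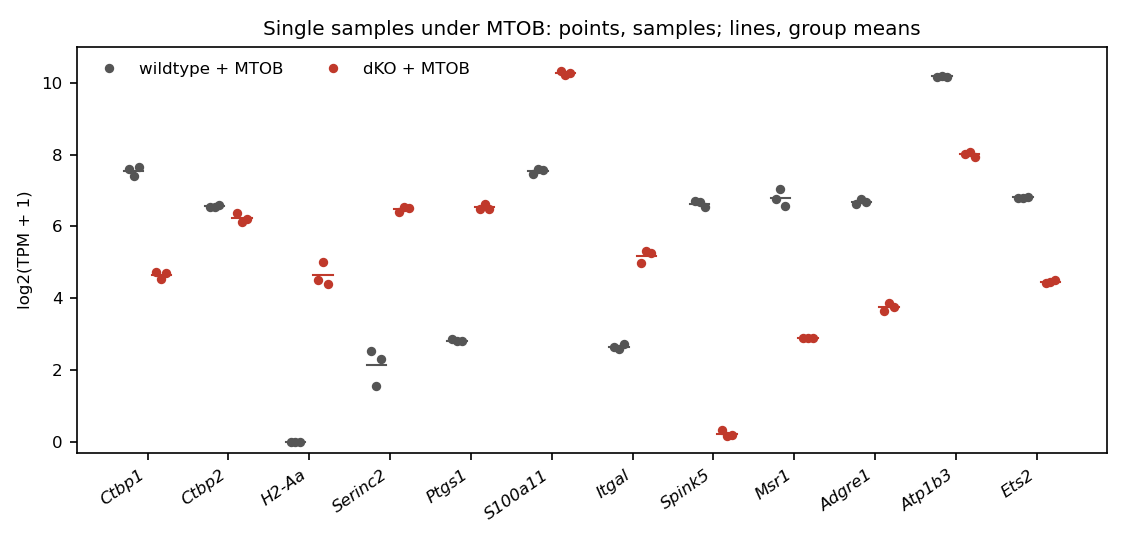
Level of 12 named genes in each sample under MTOB, as log2(TPM + 1) on the vertical axis, with grey points for the 3 wildtype samples, red points for the 3 dKO samples and a line at each group mean. Points of H2-Aa lie at 0 in wildtype, and for all 12 genes the groups do not overlap, a condition by which most of them were chosen.

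Loss of CTBPs went with more genes higher than lower under MTOB. Of 16383 genes tested, 811 were called (4.95%), 545 of them higher (3.33%) and 266 lower (1.62%) in dKO cells, where a call means a Benjamini-Hochberg adjusted p below 0.05 in limma and a log2 difference past 0.585, a fold of 1.5. The test, the fold limit and all log2 differences (dKO minus wildtype) are on log2(TPM + 1), a scale that understates the change of genes at low levels, while the fold changes printed for single genes are ratios of mean TPM. The median log2 difference was 0.99 among the genes called higher and -0.92 among those called lower, against 0.003 over all genes tested. In 805 of the 811 called genes the dKO and wildtype samples did not overlap in TPM, against 3851 of all genes tested (23.5%). By the adjusted p alone 1829 genes passed (11.2%), 1144 higher and 685 lower, and by unadjusted p 3671 (22.4%). With dKO replicate 1 left out, 809 genes were called, 568 higher and 241 lower, and 689 of them were among the 811. A mean normalized count under 10 stood behind 141 of the called genes.

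**Figure D2:**
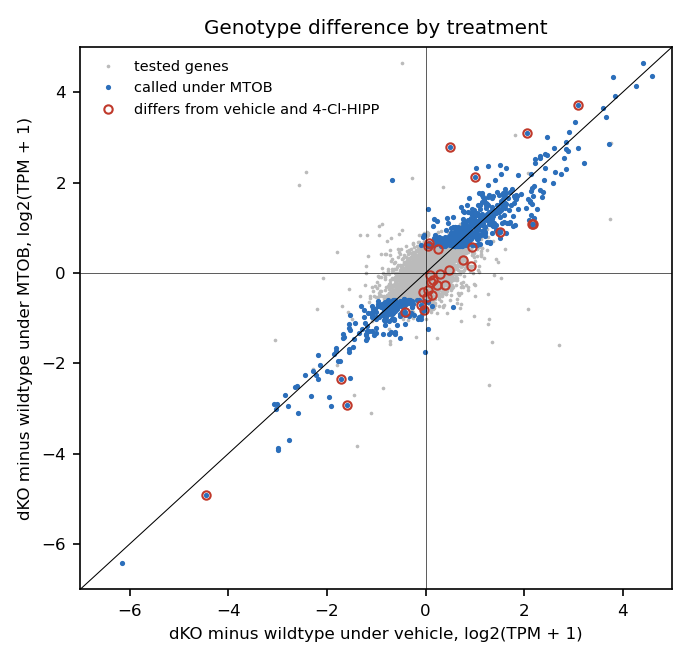
Genotype difference (dKO minus wildtype, log2(TPM + 1)) under MTOB on the vertical axis against that under vehicle on the horizontal axis, for the 11044 genes whose mean normalized count reached 10. Blue points are genes called under MTOB, red circles are genes whose difference under MTOB differed from the mean of vehicle and 4-Cl-HIPP, and the line marks equal differences (r = 0.77 across genes).

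The targeted genes themselves differed in how far their RNA fell short of wildtype. Ctbp1 (GRCm39 chr5:33401056-33432483) was listed at 192, 170.1 and 199 TPM in wildtype and 25.8, 22 and 25 TPM in dKO samples. The groups did not come near each other, and the wildtype mean was 7.71-fold the dKO mean (log2 difference -2.90, SE 0.13, adjusted p = 2.89e-10 in limma). Some Ctbp1 RNA was thus still counted in each dKO sample. Ctbp2 (chr7:132589292-132726083) was listed at 93, 92.1 and 95.5 TPM in wildtype and 81.9, 68.5 and 72.7 TPM in dKO samples. These groups did not overlap either, but the dKO mean was 0.795 of the wildtype mean (log2 difference -0.33, SE 0.06, adjusted p = 0.00122), under the fold limit. With only the MTOB samples in the fit, the adjusted p of Ctbp2 was 0.0659. The same genes differed by -3.07 and -0.28 under vehicle and by -3.13 and -0.29 under 4-Cl-HIPP. Gene disruption by CRISPR can leave RNA without a working protein, and protein was not analysed here.

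Genes whose products work with CTBPs were mostly not called. Of 20 members of the CTBP and corepressor complex 1 was called higher and 2 lower (15%, against 4.95% of all genes), Ctbp1 among them, with a median log2 difference of 0.02. Zfp217, a zinc finger protein found with CTBP and LSD1, was listed at 16.8, 17.4 and 17.5 TPM in wildtype and 27.5, 28.8 and 26 TPM in dKO samples, 1.59-fold higher on average (adjusted p = 1.46e-07), with no overlap, and its call was lost with a pseudocount of 5. Its close partner Zfp516 went the other way, at 3.75, 4.02 and 3.45 TPM in wildtype and 0.0632, 0.0609 and 0 TPM in dKO samples (log2 difference -2.19, adjusted p = 5.31e-06). The remaining 17, which include Kdm1a (log2 difference -0.05), Hdac1 (-0.17), Hdac2 (0.24), Ehmt1 (0.02) and Ehmt2 (0.09), were not called. Among 16 DNA-binding partners that recruit CTBPs, 1 was called (6.25%), with a median of 0.04. It was Zeb2, a repressor that binds E-boxes, at 29.2, 29.7 and 34.2 TPM in wildtype and 57.8, 93.8 and 74.7 TPM in dKO samples, 2.43-fold higher (adjusted p = 0.000204), and it was not called in limma's test against a fold of 1.5. Of the 4 dehydrogenases of the 2-hydroxyacid family, Ctbp1 alone was called, and the serine synthesis enzyme Phgdh was listed at 316, 366 and 301 TPM in wildtype and 365, 315 and 349 TPM in dKO samples, which overlapped (adjusted p = 0.699).

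Of 14 tested genes that earlier work placed under CTBP control, 4 were called higher and 1 lower in dKO cells, with a median of 0.24, beside 3.33% higher and 1.62% lower over all genes. The 5 calls became 4 with a pseudocount of 5, 3 with a fold limit of 2 and 2 in limma's test against a fold of 1.5. Itga5, the fibronectin-binding integrin subunit, was listed at 43.3, 39 and 41.3 TPM in wildtype and 80.8, 92.4 and 90.1 TPM in dKO samples (2.13-fold, adjusted p = 1.06e-07). The cell death genes Bmf and Pmaip1, which encode BH3-only proteins of the BCL2 family, were also higher. Bmf was listed at 10.7, 7.59 and 9.48 TPM in wildtype and 19.8, 21.7 and 20.5 TPM in dKO samples (2.24-fold, adjusted p = 2.25e-05), and Pmaip1 at 11.5, 13.9 and 13.2 and 24.1, 24.7 and 26.1 TPM (1.94-fold, adjusted p = 2.68e-05). For each of these the groups did not overlap. Tiam1, an exchange factor of RAC, was at 3.68, 1.09 and 1.51 TPM in wildtype and 5.12, 6.19 and 4.58 TPM in dKO samples (adjusted p = 0.00802), and its call was lost with a pseudocount of 5 and with only the MTOB samples in the fit. Tnf was lower in dKO cells and is described with the cytokines. Of the genes not called, Cdkn1a, an inhibitor of cyclin-dependent kinases, differed by 0.37 (adjusted p = 0.00694) and Bax by -0.17 (adjusted p = 0.00363). In the BCL2 family as a whole 2 of 17 members were called higher and 1 lower (17.6%, against 4.95% of all genes), the survival gene Bcl2, at 4.83, 5.15 and 5.02 TPM in wildtype and 2.91, 2.95 and 2.81 TPM in dKO samples (log2 difference -0.62, adjusted p = 2.49e-05). The Bcl2 call was lost with a pseudocount of 5, and the family's 3 calls became 1 with a fold limit of 2 or in limma's test against a fold of 1.5.

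The class II genes H2-Aa, H2-Eb1 and H2-Ab1 were listed at 0 in every wildtype sample under MTOB and present in every dKO sample. These genes encode the proteins that show peptides to helper T cells, and macrophages usually make them after interferon gamma. H2-Aa, an alpha chain, was listed at 0 TPM in all 3 wildtype samples and at 22, 31.3 and 20.2 TPM in dKO samples (adjusted p = 5.01e-12). H2-Eb1, a beta chain, was at 0 TPM in wildtype and 21.5, 15 and 14.5 TPM in dKO samples (adjusted p = 2.01e-11), and H2-Ab1, the partner of H2-Aa, at 0 TPM and 6.08, 5.3 and 3.88 TPM (adjusted p = 1.75e-07). Every dKO sample therefore lay above every wildtype sample for the 3 genes, and no fold change can be given against 0. The peptide exchange genes of the same region were higher too, H2-DMa at 2.02, 4.2 and 6.47 TPM in wildtype and 15.7, 18.3 and 12.3 TPM in dKO samples (3.66-fold, adjusted p = 0.00276, 0.0588 with only the MTOB samples in the fit) and H2-DMb1 at 0, 0 and 0.317 and 1.96, 2.19 and 2.05 TPM (adjusted p = 2.81e-05). The invariant chain Cd74 was already abundant in wildtype cells, at 326, 314 and 328 TPM, against 460.04, 403 and 406 TPM in dKO cells, and was under the fold limit (log2 difference 0.39, adjusted p = 7.82e-05). Ciita, the factor that switches class II genes on, was listed at 0 TPM in wildtype samples and 0.154, 1.39 and 0.368 TPM in dKO samples and did not pass (adjusted p = 0.0713). Of the 24 genes of MHC class I and class II presentation 8 were called higher and 0 lower (33.3%, against 4.95% of all genes), with a median of 0.45, a value that does not depend on the genes listed at 0 since all lie above it. By unadjusted p 20 of the 24 passed, against 22.4% of all genes. The 8 calls became 6 with a pseudocount of 5, 5 with only the MTOB samples in the fit, 5 with a fold limit of 2 and 4 in limma's test against a fold of 1.5. Among the class I genes the called members were Tap2, Tapbp and H2-T23, between 1.68- and 1.95-fold higher, while H2-D1 (0.41), H2-K1 (0.43) and B2m (0.28) were higher by less than the fold limit. Under MTOB, vehicle and 4-Cl-HIPP in that order, the log2 difference was 4.65, 4.41 and 4.17 for H2-Aa, 4.15, 4.27 and 3.86 for H2-Eb1, 2.59, 2.32 and 2.51 for H2-Ab1, and 1.73, 1.49 and 1.73 for H2-DMa.

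Because class II genes share a promoter element, the Y box, the promoters of H2-Aa and H2-Eb1 are shown (RefSeq, GRCm38.p6, 250 bases before to 50 after the start). Capitals mark CTGATTGG, the Y box with its flank, searched on both strands. It lay in 4.10% of all 32851 promoters of the same length, in 10 of 21 promoters of the MHC list (19 of its 24 genes matched an entry) and in 3 of 7 promoters of the members called higher. Over promoters of all genes tested its share was 5.78%, with 4.54% for genes called higher and 6.02% for genes called lower. H2-Aa lies on the minus strand at chr17:34287774-34288073 with the motif starting at base -51, and H2-Eb1 on the plus strand at chr17:34305617-34305916 with the motif at -62. A match describes the letters of the window and shows no binding.
H2-Aa: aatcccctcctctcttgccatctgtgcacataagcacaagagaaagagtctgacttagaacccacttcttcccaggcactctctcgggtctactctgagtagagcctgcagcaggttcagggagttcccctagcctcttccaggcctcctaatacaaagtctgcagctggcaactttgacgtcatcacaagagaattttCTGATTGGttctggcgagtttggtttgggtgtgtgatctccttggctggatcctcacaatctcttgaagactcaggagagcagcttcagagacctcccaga
H2-Eb1: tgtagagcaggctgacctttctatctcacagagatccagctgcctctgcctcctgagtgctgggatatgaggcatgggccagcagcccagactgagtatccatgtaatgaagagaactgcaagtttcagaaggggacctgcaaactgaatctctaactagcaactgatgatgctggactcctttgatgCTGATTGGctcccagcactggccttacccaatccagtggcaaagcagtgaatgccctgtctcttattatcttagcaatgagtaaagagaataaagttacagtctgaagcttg

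Many interferon effectors were higher in dKO cells. Of 52 tested members 27 were called higher and 0 lower (51.9%, against 4.95% of all genes), and 40 passed by unadjusted p in limma in either direction, against 22.4% of all genes. The median log2 difference was 0.73 against 0.003 over all genes, and 39 did not overlap between the groups, against 23.5% of all genes. Such genes encode antiviral enzymes, sensors and signalling factors that type I interferon induces. Rsad2, the antiviral enzyme viperin, was nearly silent in wildtype cells at 0, 0.125 and 0.191 TPM and was listed at 8.66, 7.14 and 9.58 TPM in dKO cells (log2 difference 3.09, SE 0.17, adjusted p = 4.1e-09). Ifi44l was at 10.1, 5.71 and 5.65 TPM in wildtype and 56.7, 50.9 and 61.3 TPM in dKO samples (7.89-fold, adjusted p = 2.59e-07), and its relative Ifi44 at 52.3, 37.7 and 34 and 89.6, 119.7 and 131 TPM (2.75-fold, adjusted p = 3.64e-05). Neither gene overlapped between genotypes. The exonuclease Isg20 was at 3.68, 2.05 and 2.95 TPM in wildtype and 11.6, 16.8 and 17.4 TPM in dKO samples (5.28-fold, adjusted p = 2.69e-05), and the dynamin-like GTPase Mx2 at 3.7, 2.69 and 2.98 and 8.8, 11.9 and 11.3 TPM (3.41-fold, adjusted p = 0.00114). Irf7, which drives the genes of type I interferon, was 2.36-fold higher, at 26.7, 23.4 and 17.9 TPM in wildtype and 48.1, 55.8 and 56.6 TPM in dKO samples (adjusted p = 8.04e-05). The 2'-5'-oligoadenylate synthetase genes Oas2, Oas3, Oasl1 and Oasl2 were 1.94-, 1.9-, 2.65- and 3.08-fold higher, and the RNA sensors Ddx58 and Ifih1 2.14- and 1.92-fold. Isg15, a ubiquitin-like protein, was 2.22-fold higher with an adjusted p of 0.0399, near the limit. Stat2 and Irf9, which carry the interferon signal, differed less. Stat2 differed by 0.54 (adjusted p = 0.00212) and Irf9 by 0.45 (adjusted p = 0.00181), both under the fold limit. The guanylate-binding proteins Gbp2 (-0.25), Gbp3 (-0.01) and Gbp5 (0.02) were not called. Leaving out 1 sample at a time gave 22 to 27 called members, 27 of them without dKO replicate 1. With only the MTOB samples in the fit 22 were called, with a pseudocount of 5 also 22, with a fold limit of 2 there were 15, and in limma's test against a fold of 1.5 there were 7.

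The promoters of Rsad2 and Ifi44l are shown because they had the largest differences of the interferon list. Capitals mark TTTCNNTTT, the core of the element through which interferon acts, on either strand. It lay in 10.6% of all promoters, in 36 of 49 promoters of the interferon list (41 of 52 genes matched), in 19 of 25 promoters of the called members and in 17 of 24 of those not called. Rsad2 lies on the minus strand at chr12:26456403-26456702 and Ifi44l on the minus strand at chr3:151762842-151763141. Over all 573 promoters of genes called higher, which covered 405 of 545 genes, the share was 14.0%, against 10.4% of 249 promoters of genes called lower and 8.16% of 13213 promoters of genes tested. The AP-1 site TGANTCA was in 11.3% of promoters called higher, 6.83% called lower and 5.32% of those tested. The E-box CACCTG, the letters that ZEB proteins read, was in 18.7%, 20.5% and 17.7%, and the KLF box CCACACCC in 5.06%, 3.21% and 3.94%.
Rsad2: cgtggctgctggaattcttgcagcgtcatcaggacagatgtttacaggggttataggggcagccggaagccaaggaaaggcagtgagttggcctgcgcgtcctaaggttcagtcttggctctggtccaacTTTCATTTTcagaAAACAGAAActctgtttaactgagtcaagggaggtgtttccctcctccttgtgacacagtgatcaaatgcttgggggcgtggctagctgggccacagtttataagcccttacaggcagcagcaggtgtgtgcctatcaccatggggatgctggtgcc
Ifi44l: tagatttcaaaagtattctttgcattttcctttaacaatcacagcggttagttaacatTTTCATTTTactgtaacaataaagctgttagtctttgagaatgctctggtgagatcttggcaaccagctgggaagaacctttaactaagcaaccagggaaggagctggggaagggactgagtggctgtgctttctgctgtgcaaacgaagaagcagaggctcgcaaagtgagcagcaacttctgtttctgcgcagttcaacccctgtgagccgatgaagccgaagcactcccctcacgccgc

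Of 22 integrins and other adhesion genes 8 were called higher and 0 lower in dKO cells, with 14 not called (36.4% called, against 4.95% of all genes; 17 passed by unadjusted p in limma, against 22.4% of all genes) and a median log2 difference of 0.41. Integrins are paired surface receptors that hold leukocytes to vessel walls, matrix and each other. Itgal, the alpha chain of LFA-1, was listed at 5.25, 4.95 and 5.67 TPM in wildtype and 30.5, 39.2 and 37.4 TPM in dKO samples (6.74-fold, adjusted p = 3.69e-11). Itgb7, the beta chain of gut-homing integrins, was at 1.04, 0.854 and 0.925 TPM and 19.2, 14.5 and 11.3 TPM (16-fold, adjusted p = 2.08e-06). Itgam, the alpha chain of complement receptor MAC-1, was at 15.6, 15.4 and 16.6 TPM in wildtype and 34.6, 65.3 and 43.7 TPM in dKO samples (3.02-fold, adjusted p = 3.97e-05). The dKO samples lay above the wildtype samples throughout, with a spread among dKO samples for Itgam that the wildtype samples did not have. Itgax, the CD11c chain, was listed at 0 TPM in wildtype samples and 2.3, 1.56 and 2.9 TPM in dKO samples (adjusted p = 3.91e-06), and its call was lost with a pseudocount of 5. Itgb2, the beta chain that these alpha chains pair with, was 1.55-fold higher, at 58, 78 and 68.2 TPM in wildtype and 101, 116 and 101 TPM in dKO samples (adjusted p = 0.000179). Itga4, the other partner of the beta 7 chain, differed by -0.49 (adjusted p = 0.00107), under the fold limit. The list's count was 5 with a pseudocount of 5, with a fold limit of 2 and in limma's test against a fold of 1.5, 5 without wildtype replicate 1, 5 without dKO replicate 2 and 7 without dKO replicate 1.

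Receptors for antibody, complement and particles went in opposite directions. Of 22 tested, 7 were called higher and 4 lower (50%, against 4.95% of all genes), with a median of 0.12. The 11 calls became 8 with a fold limit of 2 and 5 in limma's test against a fold of 1.5. Msr1, the class A scavenger receptor that takes up modified lipoproteins, was listed at 108, 131 and 94.6 TPM in wildtype and 6.37, 6.39 and 6.39 TPM in dKO samples. The dKO samples were 17.4-fold lower on average (log2 difference -3.91, SE 0.13, adjusted p = 1.22e-11), and the groups were far apart. Fcgr2b, the inhibitory Fc receptor, was at 26.6, 22.1 and 22.1 TPM in wildtype and 10.1, 10.5 and 7.98 TPM in dKO samples (log2 difference -1.23, adjusted p = 6.83e-05), and the lectins Clec4d and Clec4e differed by -0.75 and -0.65. In contrast, the receptors of complement fragments were higher. C3ar1 was at 3, 2.96 and 2.63 TPM in wildtype and 9.66, 13 and 10.6 TPM in dKO samples (3.88-fold, adjusted p = 2.6e-07), C5ar1 at 6.04, 6.64 and 4.83 and 19, 17.3 and 18.4 TPM (3.12-fold, adjusted p = 0.000193), and the beta-glucan receptor Clec7a at 1.19, 0.452 and 1.15 and 4.39, 4.79 and 3.91 TPM (4.67-fold, adjusted p = 0.000528). None of these overlapped between genotypes.

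Of 20 Toll-like receptors and adaptors 1 was called higher and 1 lower (10%, against 4.95% of all genes), with a median of -0.03, and 1 of them was left with a fold limit of 2 or in limma's test against a fold of 1.5. Cd14, which hands lipopolysaccharide to TLR4, was listed at 857, 824 and 819.7 TPM in wildtype and 322, 329 and 324 TPM in dKO samples, 2.56-fold lower without overlap (log2 difference -1.36, SE 0.07, adjusted p = 2.56e-09). Tlr4 itself went the other way, at 9.56, 9.28 and 8.65 TPM in wildtype and 16.6, 15.2 and 15.5 TPM in dKO samples (1.72-fold, adjusted p = 1.34e-05), a call lost with a pseudocount of 5. Tlr2 (0.00), Myd88 (-0.23) and Traf6 (-0.05) were not called.

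Receptors that restrain immune cells were called in either direction, 7 higher and 4 lower of 19 (57.9%, against 4.95% of all genes), with a median of 0.13. The 11 calls became 6 with a fold limit of 2 and 4 in limma's test against a fold of 1.5. Lair1, a collagen receptor with an inhibitory tail, was listed at 4.76, 5.1 and 2.75 TPM in wildtype and 22.8, 28.4 and 28.8 TPM in dKO samples (6.34-fold, adjusted p = 2.77e-06). Havcr2, known as TIM-3, was at 3.97, 4.9 and 7.09 TPM in wildtype and 17.7, 15.5 and 16.1 TPM in dKO samples (3.09-fold, adjusted p = 1.52e-06). Cd300a and Cd300lf, lipid-binding members of a receptor family, were 2.5- and 3.01-fold higher (adjusted p = 3.07e-06 and 0.00548). On the other side were Lilr4b (-1.02) and Lilrb4a (-0.92), which are close in sequence, Ceacam1 (-0.98) and Siglece (-0.84). The groups did not overlap in any of the 4.

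Among cytokines and chemokines 5 of 23 were called higher and 4 lower (39.1%, against 4.95% of all genes), with a median of 0.14. The 9 calls became 3 with a fold limit of 2 and 2 in limma's test against a fold of 1.5. Ccl22, which draws T cells that carry CCR4, was listed at 0, 0 and 0.198 TPM in wildtype and 5.8, 4.21 and 3.82 TPM in dKO samples (log2 difference 2.39, adjusted p = 3.33e-07). Ccl9, a chemokine of myeloid cells, was at 121, 109 and 62.6 TPM in wildtype and 278, 319 and 332 TPM in dKO samples (3.18-fold, adjusted p = 4.52e-05). Both were higher in each dKO sample than in any wildtype sample. The inflammatory chemokines Ccl3 and Ccl4 and the cytokine Tnf were lower. Ccl4 was at 68.4, 60.6 and 60.4 TPM in wildtype and 25.9, 20.5 and 22 TPM in dKO samples (2.77-fold lower, adjusted p = 0.000348), Ccl3 at 122, 123 and 123 and 64.7, 65.6 and 65.4 TPM (1.88-fold lower, adjusted p = 2.53e-05), and Tnf at 174, 171 and 171 and 90.4, 96.4 and 98.6 TPM (1.81-fold lower, adjusted p = 1.97e-06). The groups were apart for all 3. Il18, an inflammasome cytokine, was at 13.5, 22.6 and 16.7 TPM in wildtype and 32.3, 32.2 and 36.9 TPM in dKO samples (adjusted p = 0.0027, 0.0582 with only the MTOB samples in the fit).

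**Figure D3:**
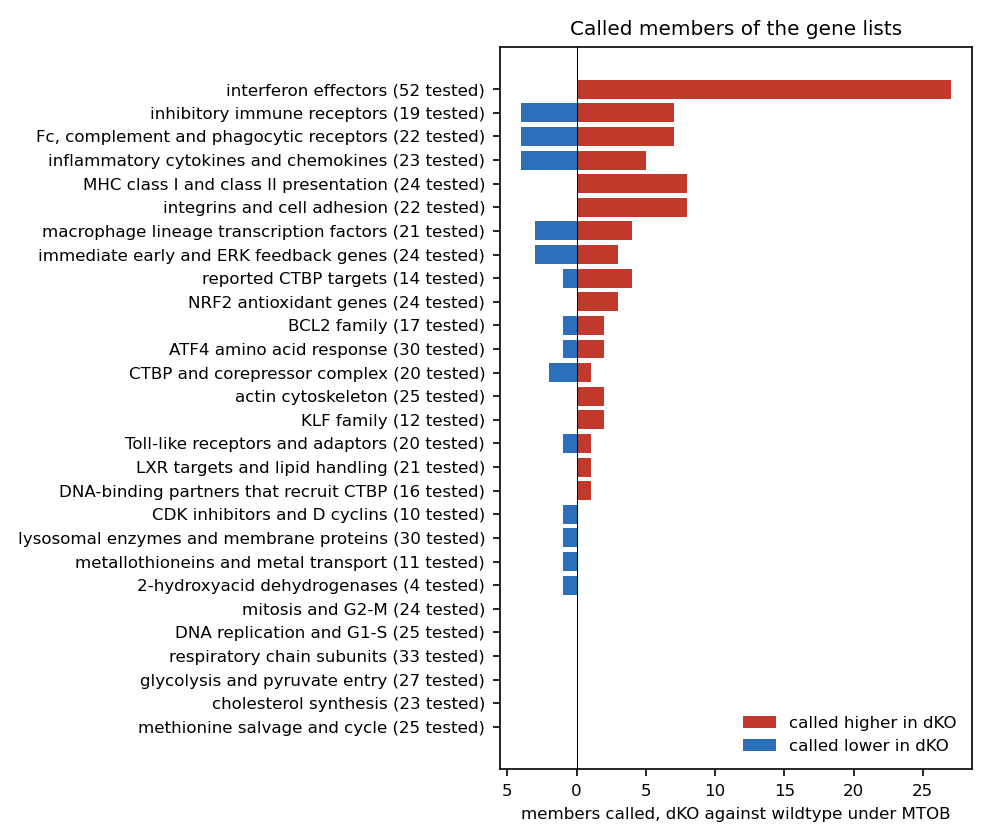
Number of members of each of the 28 gene lists called higher (red, to the right) or lower (blue, to the left) in dKO cells under MTOB, with the number tested beside each name. By number interferon effectors hold the most, 27 of 52 (51.9%), and 6 lists hold 0. By share inhibitory immune receptors hold the most (57.9%), against 4.95% of all genes.

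The largest single-gene differences lay partly outside these groups. Serinc2, a membrane protein of the serine incorporator family, was listed at 4.74, 1.93 and 3.97 TPM in wildtype and 83, 92.1 and 91.3 TPM in dKO samples (25-fold, log2 difference 4.36, SE 0.23, adjusted p = 2.8e-09). Ptgs1, the constitutive cyclooxygenase that starts prostaglandin synthesis, was at 6.29, 5.95 and 5.99 TPM in wildtype and 88.1, 98.5 and 89.5 TPM in dKO samples (15.1-fold, log2 difference 3.72, SE 0.07, adjusted p = 9.61e-15). Replicates of Ptgs1 were close together in either genotype. Hmgn3, a nucleosome-binding protein, was at 0.637, 0 and 0.594 TPM in wildtype and 33.9, 24.4 and 22.8 TPM in dKO samples (log2 difference 4.33, adjusted p = 2.02e-06). Padi4, which turns arginine of histones into citrulline, was listed at 0 TPM in wildtype samples and 11.4, 13.4 and 10.3 TPM in dKO samples (adjusted p = 4.6e-12). Ocstamp, needed for fusion of osteoclasts and macrophages, was at 0, 0.114 and 0.228 TPM in wildtype and 9.46, 9.55 and 11.8 TPM in dKO samples (log2 difference 3.34, adjusted p = 4.87e-11). For all of these the genotypes were separate in every sample, which was a condition of naming them. Pla1a, a phospholipase that acts on phosphatidylserine, was at 2.52, 0 and 0.209 TPM in wildtype and 18.1, 14.4 and 18.3 TPM in dKO samples (adjusted p = 1.44e-06), and Ndrg4 at 4.69, 6.41 and 8.75 and 49.1, 58.1 and 56.1 TPM (8.23-fold, adjusted p = 1.31e-09). The X-chromosomal gene 3830403N18Rik and the pseudogene Gm9732 differed by 3.91 and 3.12. Commd1b, which has a near-identical copy elsewhere in the genome so that reads of either copy are hard to assign, was listed at 0 TPM in wildtype samples and at 4.67, 20.1 and 1.72 TPM in dKO samples. Its dKO samples differed widely (adjusted p = 0.00212, 0.112 with only the MTOB samples in the fit).

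Among the genes lower in dKO cells, some were close to absent. Spink5, an inhibitor of serine proteases, was listed at 103, 101 and 92.9 TPM in wildtype and 0.249, 0.117 and 0.151 TPM in dKO samples (log2 difference -6.41, SE 0.07, adjusted p = 4.88e-18). Pcdhgc3, a member of the gamma protocadherin cluster whose genes share their last exons, was at 29.7, 27.5 and 29.9 TPM in wildtype and listed at 0 TPM in all 3 dKO samples (adjusted p = 4.88e-18). Igf1, a growth factor that macrophages release, was at 16.7, 15.9 and 9.84 TPM in wildtype and listed at 0 TPM in dKO samples (adjusted p = 1.19e-09). Every wildtype sample thus carried RNA of genes that dKO samples lacked or nearly lacked. Rbfox1, a splicing factor best known in neurons, was at 13.5, 14.5 and 14.8 TPM in wildtype and 0.095, 0.0899 and 0.37 TPM in dKO samples (log2 difference -3.70, adjusted p = 1.45e-10). Further genes of this kind, each above 5 TPM in every wildtype sample and under 0.5 TPM in every dKO sample, were Galnt6, which starts O-linked glycosylation (-3.11), the anthrax toxin receptor Antxr1 (-3.00), the carbonyl reductase Cbr1 (-2.95), cardiac troponin T gene Tnnt2 (-2.73) and Ambp (-2.71).

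Others fell short of wildtype but were still expressed. Adgre1, which encodes the macrophage surface antigen F4/80, was listed at 98.2, 107 and 101 TPM in wildtype and 11.5, 13.7 and 12.6 TPM in dKO samples (8.09-fold lower, log2 difference -2.92, SE 0.18, adjusted p = 1.76e-08). Cx3cr1, the fractalkine receptor and another macrophage marker, was at 120.03, 111 and 118 TPM and 48, 58.7 and 59.7 TPM (2.1-fold lower, adjusted p = 1.07e-07). So 3 of the 11 macrophage markers, Adgre1, Cx3cr1 and Cd14, were called lower (1.62% over all genes), 1 (Itgam) higher (3.33% over all genes), and Csf1r (-0.03), Cd68 (0.14) and Ptprc (0.12) were among those not called. Calcrl, the receptor of adrenomedullin and related peptides, was at 67.8, 59 and 72.7 TPM in wildtype and 6.51, 9.84 and 7.21 TPM in dKO samples (8.47-fold lower, adjusted p = 3.79e-08). Pla2g5, a secreted phospholipase that frees arachidonic acid, was at 158, 179 and 147 TPM and 21.5, 22.5 and 25.6 TPM (6.96-fold lower, adjusted p = 1.02e-08). The sialyltransferase gene St3gal6 was 8.38-fold lower (adjusted p = 2.05e-07). No overlap between genotypes was seen for any of these lower genes, which was a condition of naming Adgre1, Calcrl, Pla2g5 and St3gal6.

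Among called genes, those with the largest differences in TPM included S100 genes and a pump subunit. S100 proteins are small EF-hand proteins that bind partners such as annexins. S100a11 was listed at 174, 193 and 190.5 TPM in wildtype and 1285, 1196 and 1248 TPM in dKO samples (6.69-fold, log2 difference 2.74, SE 0.05, adjusted p = 9.61e-15), and S100a10 at 197, 225 and 224 and 678, 625 and 610.4 TPM (2.96-fold, adjusted p = 2.12e-11). S100a4 was already among the abundant genes at 2928, 2935 and 2799.9 TPM in wildtype and was at 4641, 4158 and 4427 TPM in dKO samples (1.53-fold, adjusted p = 3.65e-08). S100a6 was 1.66-fold higher (adjusted p = 1.78e-08). Atp1b3, a beta subunit of the sodium-potassium pump, was at 1156, 1172 and 1156 TPM in wildtype and 259, 268 and 244 TPM in dKO samples (4.52-fold lower, log2 difference -2.17, SE 0.03, adjusted p = 8.61e-17). Fxyd2, a regulatory subunit of the same pump, went up, at 705, 772 and 746 TPM in wildtype and 1295, 1041 and 1134 TPM in dKO samples (1.56-fold, adjusted p = 1.66e-06). Without dKO replicate 1, the log2 differences of S100a4 (0.57) and Fxyd2 (0.55) were under the fold limit. Car2, a carbonic anhydrase of the cytosol, was at 843, 807 and 804 TPM in wildtype and 148, 138 and 137 TPM in dKO samples (5.8-fold lower, adjusted p = 1.88e-14). Cybb, the catalytic subunit of the phagocyte NADPH oxidase, was at 300.3, 256 and 253 TPM and 53.2, 80.5 and 76.9 TPM (3.85-fold lower, adjusted p = 2.39e-08). Their wildtype and dKO samples lay far apart, where the absence of overlap was a condition of naming them.

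Transcription factors of the macrophage lineage split, with 4 of 21 called higher, 3 lower (33.3%, against 4.95% of all genes) and a median of 0.03. The 7 calls became 4 with a pseudocount of 5, and 3 with a fold limit of 2 or in limma's test against a fold of 1.5. Bhlhe40, a repressor of the circadian family active in resident macrophages, was listed at 3.36, 3.3 and 3.2 TPM in wildtype and 16.3, 16 and 18 TPM in dKO samples (5.11-fold, adjusted p = 9.67e-08). Irf8, which sets up monocyte and dendritic lineages, was at 56.1, 60.8 and 58 TPM in wildtype and 31, 32.1 and 30.8 TPM in dKO samples (1.86-fold lower, adjusted p = 3.33e-07). Cebpa, a factor of early myeloid cells, was low throughout, at 1.21, 1.7 and 1.18 TPM in wildtype and 0, 0.134 and 0.118 TPM in dKO samples (adjusted p = 2.67e-05), and its call was lost with a pseudocount of 5. Spi1 (log2 difference 0.05) and Cebpb (0.10) were not called. Among 24 immediate early and ERK feedback genes 3 were called higher and 3 lower (25%), with a median of 0.05. The 6 calls became 4 with a pseudocount of 5, and 3 with a fold limit of 2 or in limma's test against a fold of 1.5. Ets2, a nuclear target of the RAS and ERK pathway, was at 110.2, 111 and 112 TPM in wildtype and 20.4, 21.1 and 21.9 TPM in dKO samples (5.26-fold lower, log2 difference -2.34, adjusted p = 5.55e-12). Fos, a part of AP-1, was at 8.34, 7.93 and 8.41 TPM in wildtype and 24.4, 23.6 and 21.3 TPM in dKO samples (2.81-fold, adjusted p = 4.4e-05), and the phosphatase gene Dusp4 at 13.2, 12.9 and 11.2 and 26.2, 29.8 and 30.9 TPM (2.32-fold, adjusted p = 1.42e-06). Each of these kept the genotypes apart. The call of Dusp6 (adjusted p = 0.0396) was lost whichever MTOB sample was left out, with sample weights and with a pseudocount of 5, and without wildtype replicate 2 the list held 3 called genes. Of 12 KLF factors 2 were called higher and 0 lower (16.7%; 4 passed by unadjusted p in limma, against 22.4% of all genes), with a median of 0.12. Klf6, an injury-responsive factor, was 3.32-fold higher, at 2.08, 2.67 and 2.44 TPM in wildtype and 7.96, 7.27 and 8.63 TPM in dKO samples (adjusted p = 3.07e-06). Klf11 was at 0.603, 0.627 and 1.04 TPM in wildtype and 2.25, 4.52 and 2.64 TPM in dKO samples (adjusted p = 0.000371), and its call was lost with a pseudocount of 5, which left 1 called member. Klf3, the member best known to bind CTBPs, differed by 0.01.

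Few metabolic genes were called. Over all genes, 4.95% were called, 11.2% passed by the adjusted p alone and 22.4% by unadjusted p. Of 25 genes of the methionine cycle and salvage pathway, from which MTOB comes, 0 were called in limma (6 by the adjusted p alone and 6 by unadjusted p), with a median of -0.03. Without dKO replicate 1, 1 member was called. Odc1, the first enzyme of polyamine synthesis, was listed at 722, 719 and 699 TPM in wildtype and 542, 508 and 548 TPM in dKO samples, lower in each dKO sample but under the fold limit (log2 difference -0.42, adjusted p = 6.09e-07). The next enzyme, spermidine synthase Srm, differed by -0.02 (adjusted p = 0.79). Glycolysis had 0 of 27 called (5 by the adjusted p alone, 11 by unadjusted p) with a median of -0.02, and Pkm differed by 0.02 and Gapdh by -0.06, with the sign of Pkm reversed under quantile normalization. Of 33 respiratory chain genes 0 were called (3 by the adjusted p alone, 3 by unadjusted p), with a median of 0.00, and mt-Co1 differed by 0.05, a value of 0 under quantile normalization. It passed without dKO replicate 1 (0.11, adjusted p = 0.00375). The next most abundant member of this list, mt-Atp6, differed by -0.26 (adjusted p = 0.324), and by -0.45 without dKO replicate 3 (adjusted p = 0.0321). Cholesterol synthesis had 0 of 23 called in limma and 15 by unadjusted p, and by the adjusted p alone 9 were higher and 1 lower, with a median of 0.19. Fdps, a synthase of the mevalonate pathway, and its regulator Srebf2 differed by 0.25 and 0.24 (adjusted p = 0.00178 and 0.00916, the latter 0.0859 with only the MTOB samples in the fit and 0.053 without wildtype replicate 3). In lipid handling 1 of 21 genes was called higher and 0 lower (4.76%; 9 by unadjusted p in limma), with a median of 0.17. That gene was Lpl, the lipase that macrophages secrete, at 218, 203 and 197 TPM in wildtype and 374, 436 and 440.4 TPM in dKO samples (2.02-fold, adjusted p = 8.86e-09). The lipid list held 2 called members without dKO replicate 1.

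Most members of the stress response lists were not called. Of 24 NRF2 antioxidant genes 3 were called higher and 0 lower (12.5%, against 4.95% of all genes; 17 by unadjusted p in limma in either direction, against 22.4% of all genes), with a median of 0.21, and the 3 calls became 1 with a fold limit of 2 or in limma's test against a fold of 1.5 and 13 with no fold limit. By the adjusted p alone, 11 of the 24 were higher and 2 lower, against 11.2% of all genes in either direction. Taldo1, an enzyme of the pentose phosphate pathway, was listed at 233, 249 and 244 TPM in wildtype and 473, 425 and 456 TPM in dKO samples (1.86-fold, adjusted p = 4.1e-09). The quinone reductase Nqo1 was at 0.296, 0.154 and 0.313 TPM in wildtype and 1.29, 2.26 and 2.71 TPM in dKO samples (adjusted p = 0.000178), a call lost with a pseudocount of 5. Osgin1 was at 14.2, 10.8 and 8.85 and 18.6, 21.3 and 18.6 TPM (adjusted p = 0.00585, 0.0809 with only the MTOB samples in the fit), and Hmox1, which breaks down heme, differed by -0.09. Of 30 ATF4 amino acid response genes 2 were called higher and 1 lower (10%), with a median of 0.03, and the 3 calls became 2 with a fold limit of 2 and 1 in limma's test against a fold of 1.5. Ddit4, an inhibitor of mTORC1, was at 3.06, 4.63 and 3.77 TPM in wildtype and 15.3, 12.8 and 10.1 TPM in dKO samples (3.33-fold, adjusted p = 2.78e-05), and the stress protein gene Nupr1 at 15.1, 19.8 and 23.4 and 54.5, 47.6 and 40.4 TPM (2.44-fold, adjusted p = 0.000473). Atf5 went the other way (-0.69, adjusted p = 1.25e-05), and Atf4 itself differed by -0.07. Of 11 metallothionein and metal transport genes 0 were called higher and 1 lower (9.09%; 5 by unadjusted p in limma), with a median of -0.11, and of 30 lysosomal genes 0 were called higher and 1 lower (3.33%; 13 by unadjusted p), with a median of 0.07. These single calls, the zinc carrier Slc39a14 (-0.63, adjusted p = 0.00604) and Gpnmb (-0.97, adjusted p = 0.00818), were lost with a pseudocount of 5, and that of Slc39a14 also without dKO replicate 1, with sample weights and with only the MTOB samples in the fit. Leaving out 1 sample at a time gave 1 to 2 called members in each of these 2 lists.

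No gene of the replication and mitosis lists was called between genotypes, against 4.95% of all genes, 11.2% by the adjusted p alone (4.18% lower) and 22.4% by unadjusted p. Of 25 DNA replication genes 0 were called in limma (2 by the adjusted p alone, 5 by unadjusted p), with a median of 0.02, and Pcna and Rrm2 differed by 0.06 and 0.08. Of 24 mitosis genes 0 were called (8 by the adjusted p alone, all lower, and 11 by unadjusted p), with a median of -0.13, and 1 of the 24 differences was positive. Top2a, the topoisomerase of dividing cells, differed by -0.22 (adjusted p = 0.00092). Cdk1, the kinase of entry into mitosis, differed by -0.14 (adjusted p = 0.0354) and no longer passed under 8 of the 18 alternatives. Among 10 CDK inhibitors and D cyclins 0 were called higher and 1 lower (10%; 7 by unadjusted p in limma), with a median of -0.19. Ccnd1, cyclin D1, was listed at 366, 344 and 357 TPM in wildtype and 222, 249 and 232 TPM in dKO samples (log2 difference -0.60, adjusted p = 4.12e-08). Its fold change was just past the limit, and the call was lost without wildtype replicate 1 (-0.58) and without dKO replicate 1 (-0.56), with a fold limit of 2 and in limma's test against a fold of 1.5. Of 25 actin cytoskeleton genes 2 were called higher and 0 lower (8%; 14 by unadjusted p in limma), with a median of 0.11. Actn1, an actin cross-linker, was at 23.4, 24.6 and 21.8 TPM in wildtype and 61.2, 64.6 and 72.6 TPM in dKO samples (2.84-fold, adjusted p = 7.95e-10), and the intermediate filament gene Vim at 297, 363 and 369 and 799, 726 and 747 TPM (2.21-fold, adjusted p = 3.35e-08). Both were apart between genotypes.

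Most of the genes called between genotypes under MTOB were called without it too. Between genotypes, 792 genes were called under vehicle (4.83%), and the share under 4-Cl-HIPP was 4.72%. With vehicle 545 calls were shared in the same direction, 67.2% of the MTOB calls and 68.8% of the vehicle calls, and with 4-Cl-HIPP 518, which are 63.9% and 66.9%. Under all 3 treatments 467 genes were called in the same direction, 334 higher and 133 lower. In opposite directions were 1 gene against vehicle and 5 against 4-Cl-HIPP. These contrasts share no sample, though they share the estimate of spread. Across the 11044 genes whose mean normalized count reached 10, the log2 differences correlated at r = 0.77 between MTOB and vehicle and at 0.74 between MTOB and 4-Cl-HIPP, against 0.78 between vehicle and 4-Cl-HIPP. Over all 16383 genes tested, r between MTOB and vehicle was 0.61. Genes are not independent replicates, and no p is given. Of the 811 calls, 209 were made under MTOB alone, 123 higher and 86 lower, but 183 of the 209 had the same sign under vehicle and 5 differed in the test of the difference itself.

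That test asked whether the genotype difference depended on MTOB. It found 15 of 16383 genes (0.0916%) when the genotype difference under MTOB was set against that under vehicle, 14 negative and 1 positive (1128 by unadjusted p), and 32 genes (0.195%) against the mean of vehicle and 4-Cl-HIPP, 24 negative and 8 positive (1241 by unadjusted p). Both tests were passed by 14 genes. Negative means that the dKO level relative to wildtype was lower under MTOB. Cpd, Abr and Pou2f2 had the smallest p, with genotype differences near 0 under vehicle and clear of it under MTOB. Cpd, which encodes carboxypeptidase D of the secretory pathway, was listed at 95.6, 97.7 and 104 TPM in wildtype and 67.7, 69.3 and 67.3 TPM in dKO samples under MTOB, and at means of 28.5 ± 0.829 and 29.3 ± 0.989 TPM (SD, n = 3) under vehicle. Its log2 difference was -0.53 under MTOB, 0.04 under vehicle and -0.08 under 4-Cl-HIPP. Abr, which acts on RAC, was at 135, 122 and 127 TPM in wildtype and 86.7, 91.6 and 93 TPM in dKO samples under MTOB, with differences of -0.50, 0.13 and 0.14 in the same order. Pou2f2, the octamer-binding factor OCT2, was at 88.7, 83.5 and 85 TPM in wildtype and 51.3, 50.7 and 52.9 TPM in dKO samples (-0.72, -0.10 and 0.00). In these genes each wildtype sample under MTOB was above each dKO sample. Lyn, a SRC family kinase of myeloid cells, was at 97, 86.4 and 98 TPM in wildtype and 71.4, 73.4 and 71.3 TPM in dKO samples (-0.37, 0.04 and 0.18), and Odc1, given above, had -0.42, -0.06 and -0.08. Marcksl1, which binds actin and calmodulin, was at 425, 418 and 390.4 TPM in wildtype and 363, 314 and 344 TPM in dKO samples, and its difference changed sign, from 0.40 under vehicle and 0.46 under 4-Cl-HIPP to -0.27 under MTOB. That last difference did not pass with only the MTOB samples in the fit (adjusted p = 0.0895) or without dKO replicate 2 (-0.22, adjusted p = 0.0574).

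Of the 32 genes, 17 were also called between genotypes under MTOB, 14 with a larger and 3 with a smaller difference than in the mean of the other treatments. On the log2 scale, Ptgs1 and Rsad2 were larger in the positive direction. Ptgs1 was at 3.72 under MTOB against 3.10 under vehicle and 3.14 under 4-Cl-HIPP, and Rsad2 at 3.09 against 2.07 and 1.78. Mean Ptgs1 was lower under MTOB than under vehicle in both genotypes. It was 6.08 against 16 TPM in wildtype and 92 against 144 TPM in dKO cells. Mean wildtype Rsad2 was near 0 throughout (0.105, 0.0448 and 0.106 TPM under MTOB, vehicle and 4-Cl-HIPP). The Rsad2 difference thus depends on the pseudocount and on the dKO level, at 8.46, 3.48 and 2.79 TPM in the same order. Adgre1 at -2.92 against -1.59 and -1.49, Ets2 at -2.34 against -1.71 and -1.73, and Irf8 at -0.88 against -0.41 and -0.34 were larger in the negative direction. Wildtype Adgre1 was 102 ± 4.43 TPM under MTOB and 29.1 ± 5.55 TPM under vehicle, while dKO Adgre1 was 12.6 ± 1.12 and 8.93 ± 1.04 TPM (SD, n = 3). The wider gap thus came with a higher wildtype level under MTOB. Bmf was smaller, at 1.09 under MTOB against 2.17 and 1.87. Interferon effectors had a lower median genotype difference under MTOB (0.73, 27 called higher) than under vehicle (0.99, 39 called higher) and 4-Cl-HIPP (0.94, 36 called higher). Of the 52 members 4 differed by the test against the mean of the other treatments (0.195% of all genes). By the test against vehicle alone 0 differed (0.0916% of all genes). By unadjusted p in limma 25 members passed in each test, against 1241 and 1128 of all 16383 genes. Chosen after their values were seen, Usp18 (1.08, 2.15 and 1.96, adjusted p = 0.031), Oas3 (0.91, 1.52 and 1.77, adjusted p = 0.0455) and Ifitm3 (0.56, 0.95 and 0.86, adjusted p = 0.0492) had a smaller difference under MTOB. That of Rsad2 was larger, a value that depends on the pseudocount. These interaction counts moved with single samples and with the model. The 15 and 32 genes became 9 and 21 without dKO replicate 1 and 8 and 14 without wildtype replicate 1 under MTOB, and the 15 became 7 without dKO replicate 3 under vehicle, 8 with a replicate block and 6 without the variance trend.

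**Figure D4:**
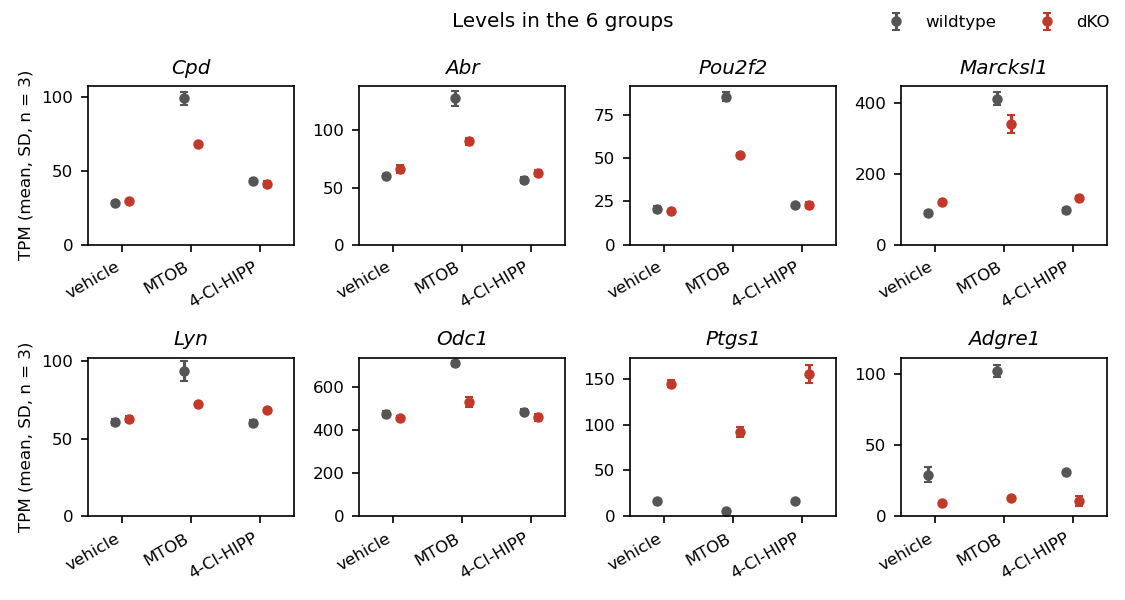
Levels of 8 genes in TPM (mean and SD, n = 3) in wildtype (grey) and dKO (red) cells under vehicle, MTOB and 4-Cl-HIPP. The genotype gap under MTOB is wider than under the other treatments in Cpd, Abr, Pou2f2, Lyn, Odc1 and Adgre1, and for Marcksl1 it has the opposite sign. For Ptgs1 the gap in TPM is narrower under MTOB, where both genotypes are lower, although its log2 difference is larger.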

How the data were processed

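RNA of the 18 samples had been sequenced by the authors, who according to the paper quantified Gencode M28 (GRCm39) transcripts with Salmon 1.9.0 and GC correction and summarised them per gene with tximport. The authors deposited the TPM of 18204 genes in each sample and, as a signal, the mean normalized count of each gene from DESeq2 1.44.0. The columns that hold the authors' log2 fold change and adjusted p-value, for each inhibitor against vehicle in each genotype, were not used. Here, genes were kept when their mean normalized count exceeded its 10th percentile (0.222), and log2(TPM + 1) of the 16383 that did was fitted with 6 group means over all 18 samples in limma 3.58.1 (R 4.3.3, data.table version 1.17.8) with a variance trend on that count. P-values of each contrast were adjusted across all fitted genes (Benjamini-Hochberg). A call took an adjusted p below 0.05 with a change of over 1.5-fold (log2 0.585), or for interaction contrasts the adjusted p alone. The procedure was tested on simulated data, and the outcome of that test is not given here. Figures used Python 3.11.15 and matplotlib 3.10.9.

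Named genes were Ctbp1 and Ctbp2, the 15 called genes per direction with the largest log2 difference (mean normalized count of at least 10, no overlap), the 5 per direction with the largest difference in TPM, the 5 per interaction contrast with the smallest p, and up to 4 called members of each of the 28 lists, or the 2 most abundant where none was called. The 5 genes per direction chosen by TPM were also required to be called and not to overlap. Other genes named as list members or in interactions were chosen after their values were seen. The lists were written from general knowledge, and members and lists were chosen with earlier results of these data known. Alternatives covered the pseudocount, the filter, the scaling, the variance model, sample weights, a replicate block, the samples in the fit, the fold limit and each MTOB replicate left out, for the interactions also each vehicle replicate. Promoters came from RefSeq (GRCm38.p6). Sequence reads, guide sequences and proteins were not analysed here. Strands were not separated in sequencing, so genes that overlap on opposite strands share signal.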

Additional observations from a re-analysis of the deposited data

Results flagged for a closer look

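These genes had a genotype difference under MTOB that differed from the genotype difference in the other treatments, by a test of that difference itself (limma interaction contrasts on log2(TPM + 1), dKO minus wildtype, adjusted over 16383 genes). Negative values mean that the dKO level relative to wildtype was lower under MTOB.

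Against vehicle, the 5 genes with the smallest p had lower relative dKO levels under MTOB. The difference was -0.57 for Cpd (SE 0.06, adjusted p = 0.0011), -0.62 for Abr (SE 0.07, adjusted p = 0.00267), -0.62 for Pou2f2 (SE 0.08, adjusted p = 0.00866), -0.68 for Marcksl1 (SE 0.09, adjusted p = 0.00885) and -0.36 for Odc1 (SE 0.05, adjusted p = 0.00885). Odc1 no longer passed without the variance trend (adjusted p = 0.102). Lyn was at -0.42 (adjusted p = 0.0261). Genes already called between genotypes under MTOB were among them, with -0.63 for Ets2 (adjusted p = 0.0318) and -1.08 for Bmf (adjusted p = 0.0318). Ptgs1 was the positive one, at 0.61 (SE 0.10, adjusted p = 0.0302). Pcdhgc3 was listed at 0 TPM in all dKO samples under MTOB, so its value of -0.45 (adjusted p = 0.0261) depends on the pseudocount and on the wildtype level.

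Against the mean of vehicle and 4-Cl-HIPP, the same genes passed, with -0.52 for Cpd (adjusted p = 0.000361), -0.63 for Abr (adjusted p = 0.000361), -0.67 for Pou2f2 (adjusted p = 0.000541), -0.70 for Marcksl1 (adjusted p = 0.00101), -0.49 for Lyn (adjusted p = 0.00144) and -0.35 for Odc1 (adjusted p = 0.00203). Ets2 was at -0.62 (adjusted p = 0.00963), Bmf at -0.93 (adjusted p = 0.0222), Ptgs1 at 0.59 (adjusted p = 0.00963) and Pcdhgc3 at -0.41 (adjusted p = 0.012), the last again dependent on the pseudocount. Adgre1 at -1.38 (adjusted p = 0.0167), Irf8 at -0.50 (adjusted p = 0.0234) and Rsad2 at 1.17 (adjusted p = 0.0274) passed here but not against vehicle alone, where their adjusted p was 0.0718, 0.13 and 0.187. Wildtype Rsad2 was near 0 TPM under each treatment, so its value depends on the pseudocount and on the dKO level. Commd1b was at 4.03 (adjusted p = 0.0173) and did not pass against vehicle alone (adjusted p = 0.523). Its genotype difference was 2.78 under MTOB, 0.49 under vehicle and -2.98 under 4-Cl-HIPP. Its wildtype samples under MTOB were all listed at 0 TPM, so the value depends on the pseudocount, and its near-identical copy makes the assignment of reads uncertain. The cause of these differences was not tested.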

How the results depend on the processing

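Of 105 named results over 18 alternatives (1885 values), 1854 kept their direction and their side of the adjusted p threshold, 26 no longer passed it, 2 came to pass it and 3 changed sign or fell to 0, while 30 calls were lost and 0 gained in limma. The 3 were Pkm at -0.036 and mt-Co1 at 0 with quantile normalization, and Srm, which ran from -0.049 to 0.0086 as single replicates were left out. The cause was not tested. Most of the 105 were named because they were called, so calls could mainly be lost. The 18 alternatives leave out the other fold limits and limma's test against a fold of 1.5, whose total counts are given below. With a pseudocount of 5, which shrinks differences at low TPM, there were 420 calls (305 higher, 115 lower), of which 295 were shared with vehicle and 301 with 4-Cl-HIPP. A fold limit of 2 gave 376 calls (270 and 106, with 267 and 263 shared), no fold limit 1829 (1144 and 685, with 1149 and 1106 shared), and limma's test against a fold of 1.5 gave 245 (176 and 69, with 183 and 186 shared). With the other groups left out of the fit, and so fewer samples behind the spread, 586 genes were called, 409 higher and 177 lower, with 385 and 380 shared, and Ctbp2 kept -0.33 with an adjusted p of 0.0659. The interaction against vehicle held 6 genes without the variance trend and 8 with a replicate block, and the cause was not tested. With the block there were 800 calls, 784 of them among the 811. Leaving out single MTOB replicates gave 724 to 809 calls, 491 to 568 higher and 233 to 258 lower, Ctbp1 at -2.96 to -2.83 and Ctbp2 at -0.40 to -0.27. Shared calls were 503 to 532 with vehicle and 484 to 506 with 4-Cl-HIPP. With single MTOB or vehicle replicates left out (4-Cl-HIPP replicates were all kept), the interactions held 7 to 20 genes against vehicle and 14 to 34 against the mean of vehicle and 4-Cl-HIPP. Against vehicle and, where a second number is given, against that mean, the lower counts came without wildtype MTOB replicate 1 (8 and 14), dKO MTOB replicate 1 (9 and 21), dKO MTOB replicate 2 (8), wildtype vehicle replicate 1 (8), dKO vehicle replicate 1 (8) and dKO vehicle replicate 3 (7). Quantile normalization gave 494 calls higher and 300 lower, and the median log2 difference of all genes was then -0.01 instead of 0.003. Depth per sample is unknown from TPM, so counting error at low levels could not be given, and 68 called genes were listed at 0 in every MTOB sample of 1 genotype (37 in wildtype, 31 in dKO).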

Other observations

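Called genes were spread over the chromosomes. By chromosome, the share of tested genes called between genotypes under MTOB ran from 3.90% on chromosome 8 to 8.52% on chromosome 12, and the median log2 difference from -0.02 to 0.04, so no chromosome was shifted as a whole. These counts cover genes that matched the annotation whose mean normalized count reached 10. Over all genes at that level, 670 of 11044 were called.

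Other genes whose genotype difference under MTOB differed from the mean of vehicle and 4-Cl-HIPP were chosen after their values were seen. Rgs16, a brake on G protein signals, was listed at 2.15, 1.79 and 2.35 TPM in wildtype and 12.9, 12.3 and 11.9 TPM in dKO samples under MTOB. Its log2 difference was 2.11 under MTOB, 1.00 under vehicle and 1.21 under 4-Cl-HIPP (adjusted p = 0.035 in limma). Plau, the urokinase plasminogen activator, was at 17.1, 20.2 and 19.98 TPM in wildtype and 28.1, 31.1 and 33.5 TPM in dKO samples, with differences of 0.67, 0.07 and -0.05 (adjusted p = 0.0222). For both genes each dKO sample lay above each wildtype sample under MTOB. Cebpd, a factor of the C/EBP family, was at 9.37, 8.42 and 10.3 TPM in wildtype and 5.13, 5.09 and 4.25 TPM in dKO samples, with -0.83 under MTOB, -0.04 under vehicle and -0.10 under 4-Cl-HIPP (adjusted p = 0.0222). Myo1d, an unconventional myosin, had a smaller difference under MTOB, with 0.16 against 0.92 and 0.92 (adjusted p = 0.00485). Ptpn6, the phosphatase SHP-1, had -0.20, 0.12 and 0.07 (adjusted p = 0.00351). Against vehicle alone, Rgs16, Plau and Cebpd did not pass (adjusted p = 0.0718, 0.13 and 0.0698 in limma). Myo1d and Ptpn6 passed there too (adjusted p = 0.0261 and 0.0098 in limma).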
